A study of Homo sapiens with 8 samples.

Results

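The replication-dependent histone genes encode the core histones H2A, H2B, H3 and H4 and the linker histone H1 that package newly made DNA. They were taken by gene name as all genes whose current symbol is H1-1 to H1-6, or H2AC, H2BC, H3C or H4C followed by a number. RefSeq lists 69 such symbols, and 65 of them were matched to a probe among the 19046 genes kept from the arrays. H2AC11, H2AC18, H3C14 and H4C14 were not matched. The 65 genes comprised 6 of class H1, 15 of H2A, 18 of H2B, 12 of H3 and 14 of H4, and 54 of them lie on chromosome 6, 10 on chromosome 1 and 1, H4C16, on chromosome 12.

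These genes are read mainly in S phase, when the cell needs histones for the new chromatin. Their messages normally carry no introns and end in a stem-loop bound by the protein SLBP rather than in a poly(A) tail. They are degraded when DNA synthesis stops. Some of the genes are annotated over longer spans, such as H2BC12 with 8566 bases and H2BC4 with 10757. H2A and H2B genes often start back to back from a shared promoter, and many copies within a class differ in few bases of their coding sequence.

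Expression was measured in A549, an established line of human lung carcinoma cells, with 1 one-colour Agilent array for each of 8 conditions in 2 series. In the EEDS series the cells received the vehicle or 1.25, 5 or 20 μg/mL of EEDS, the ethanol extract of Descurainia sophia seeds. In the helveticoside series they received the vehicle or 3.75, 15 or 60 nM of helveticoside, a cardiac glycoside. Each array held RNA pooled from 3 cultures, so a dose has no replicates and single doses are described without a test, with a precision set by the small number of arrays. The labels give an exposure of 48 h and the methods of the array experiment 24 h. Each series had its own vehicle array, so that agent and series cannot be told apart. In these bulk samples, fewer cells in S phase and less histone RNA per cell cannot be told apart either.

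Each array had 43118 probe spots, and no probe spot was saturated. Of the 34127 probes, 22 had no usable spot on 1 or more arrays. Of the other probes, 54.5% to 64.9% were well above background by the scanner's call, with the higher shares in the EEDS series. All 6 epithelial markers examined were well above background on all 8 arrays. Of the markers of other cell types, 1 of 6 fibroblast genes (COL1A1) and 2 of 5 leukocyte genes (PTPRC and CD14) were well above background on all 8. Among the histone genes, 60 of 65 were well above background on all 8 arrays, namely 4 of H1, 15 of H2A, 16 of H2B, 12 of H3 and 13 of H4. H1-1, H2BC1 and H2BC7 were well above background on none, H1-6 on 2 and H4C7 on 3. The labelling kit starts from a primer on poly(A), and the probes' sequences were not examined here, so how each probe sees messages without a poly(A) tail or messages of near-identical copies was not tested.

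The sequences before the start sites show what the classes have in common and where they differ. RefSeq promoter windows (GRCh38.p14) were matched for 60 of the 65 genes, and the 250 bases before each start were searched on both strands for 3 sequences, TATAAA (the TATA box), CCAAT (the CCAAT box) and ATTTGCAT (the octamer sequence bound by OCT1). TATAAA was found in 39 of 60 histone promoters (65%), against 11.1% of all 27305 promoters of the same length. In 31 of the 34 histone promoters with TATAAA on the gene's own strand it began 40 to 20 bases before the start. CCAAT was found in 85% of the histone promoters, against 33% of all promoters. It was present in every matched H1, H2A, H2B and H3 promoter but in 3 of 12 H4 promoters. ATTTGCAT was found in 25 of 60 (41.7%), against 1.66% of all promoters, and nearly all of these belonged to H2B (14 of 18) and H2A (10 of 14). It was in 1 of 10 H3 promoters and in none of the 6 H1 and 12 H4 promoters, where a missing match says only that these letters are not in this window.

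The promoters of 7 genes are printed. They belong to the gene of each class with the highest mean ratio over both top doses among those well above background on all 8 arrays, to H2AC25, the back-to-back neighbour of H2BC26, and to H2BC17, which with H1-2 and H2AC19 rose with dose in both series. Each line gives the 150 bases before the start, 5′ to 3′ on the gene's strand, and capitals mark the 3 sequences searched for or their reverse complements. The position is chr6:26056471-26056620 (minus strand) for H1-2, chr1:149850911-149851060 (plus) for H2AC19, chr1:228457953-228458102 (plus) for H2BC26, chr1:149852458-149852607 (plus) for H3C15, chr12:14771132-14771281 (minus) for H4C16, chr1:228457874-228458023 (minus) for H2AC25 and chr6:27893275-27893424 (plus) for H2BC17.
H1-2: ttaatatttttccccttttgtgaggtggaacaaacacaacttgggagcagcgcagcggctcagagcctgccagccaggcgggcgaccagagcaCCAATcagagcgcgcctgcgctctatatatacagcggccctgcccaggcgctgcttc
H2AC19: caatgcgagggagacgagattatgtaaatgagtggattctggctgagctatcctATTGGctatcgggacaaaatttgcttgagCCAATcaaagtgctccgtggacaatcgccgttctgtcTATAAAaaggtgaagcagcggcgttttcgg
H2BC26: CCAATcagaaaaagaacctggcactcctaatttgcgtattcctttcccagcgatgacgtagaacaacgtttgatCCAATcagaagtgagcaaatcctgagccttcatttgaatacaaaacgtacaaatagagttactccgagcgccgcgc
H3C15: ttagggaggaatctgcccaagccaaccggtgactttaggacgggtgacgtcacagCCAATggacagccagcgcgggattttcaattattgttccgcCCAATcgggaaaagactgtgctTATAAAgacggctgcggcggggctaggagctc
H4C16: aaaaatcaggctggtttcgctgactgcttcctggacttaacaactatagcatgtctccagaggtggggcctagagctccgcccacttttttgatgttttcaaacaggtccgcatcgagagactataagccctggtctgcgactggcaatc
H2AC25: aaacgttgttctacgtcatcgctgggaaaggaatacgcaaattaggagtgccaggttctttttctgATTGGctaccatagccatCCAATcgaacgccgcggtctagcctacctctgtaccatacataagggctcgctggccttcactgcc
H2BC17: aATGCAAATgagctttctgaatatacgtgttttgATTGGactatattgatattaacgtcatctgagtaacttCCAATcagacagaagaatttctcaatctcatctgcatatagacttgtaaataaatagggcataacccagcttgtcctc
The printed H2BC26 and H2AC25 windows overlap, since these genes start close to each other in opposite directions, and a CCAAT box of one is read as ATTGG in the other. H2AC19 and H3C15 are neighbours on chromosome 1. The printed H4C16 promoter, from the member with the highest top-dose ratios among those well above background on all 8 arrays, held none of the 3 sequences, and TATAAA was found farther from the start within its 250 bases.

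At the top dose of EEDS the histone genes stood higher than the bulk of genes, after a dip at the lowest dose. All values are given as the log2 ratio of the quantile-normalized intensity to that of the vehicle array of the same series, so that 1 is a 2-fold difference. The median over the 65 genes was -0.34 at 1.25 μg/mL, 0.00 at 5 μg/mL and 0.64 at 20 μg/mL, beside medians of 0.01, 0.01 and 0.02 over all 19046 genes. At 20 μg/mL, 59 of the 65 lay above the vehicle. In the helveticoside series the medians were -0.01, 0.15 and 0.35 at 3.75, 15 and 60 nM, beside 0.01, -0.04 and 0.00 over all genes. At 60 nM, 52 of 65 lay above the vehicle. The vehicle arrays differed for these genes. On helveticoside's, 47 of 65 were higher than on that of EEDS, with a median difference of 0.16, beside -0.04 over all genes. Against the mean of both vehicle arrays the histone medians were -0.47, -0.16 and 0.58 for EEDS and 0.04, 0.29 and 0.47 for helveticoside. With the arrays scaled to their 75th percentile in place of quantile normalization, the median of all genes moved to -0.36 at 20 μg/mL EEDS and -0.18 at 60 nM helveticoside, and the histone medians were 0.79 and 0.60.

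Many histone genes moved by less than 2-fold. At 20 μg/mL EEDS, 15 of 65 were over 2-fold higher (13.4% of all genes were) and 0 were over 2-fold lower (14.6%). The share higher, 23.1%, was above the background and the share lower was below it. At 1.25 μg/mL 1 was over 2-fold higher (4.22% of all genes) and 3 lower (3.71%), and at 5 μg/mL 3 were higher (7.38%) and 2 lower (8.53%), which are near or under the background. At 60 nM helveticoside 7 were over 2-fold higher (10.9%), a share of 10.8% near the background, and 1 was lower (12.9%). At 15 nM the counts were 6 higher (7.14%) and 1 lower (8.13%), and at 3.75 nM 1 higher (3.37%) and 1 lower (4.38%). Over the 60 members well above background on all 8 arrays, 13 were over 2-fold higher at 20 μg/mL EEDS (14.3% of the 11493 genes that passed the same filter) and 0 lower (16.2%), and at 60 nM helveticoside 4 were higher (11%) and 1 lower (13.3%).

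**Figure D1:**
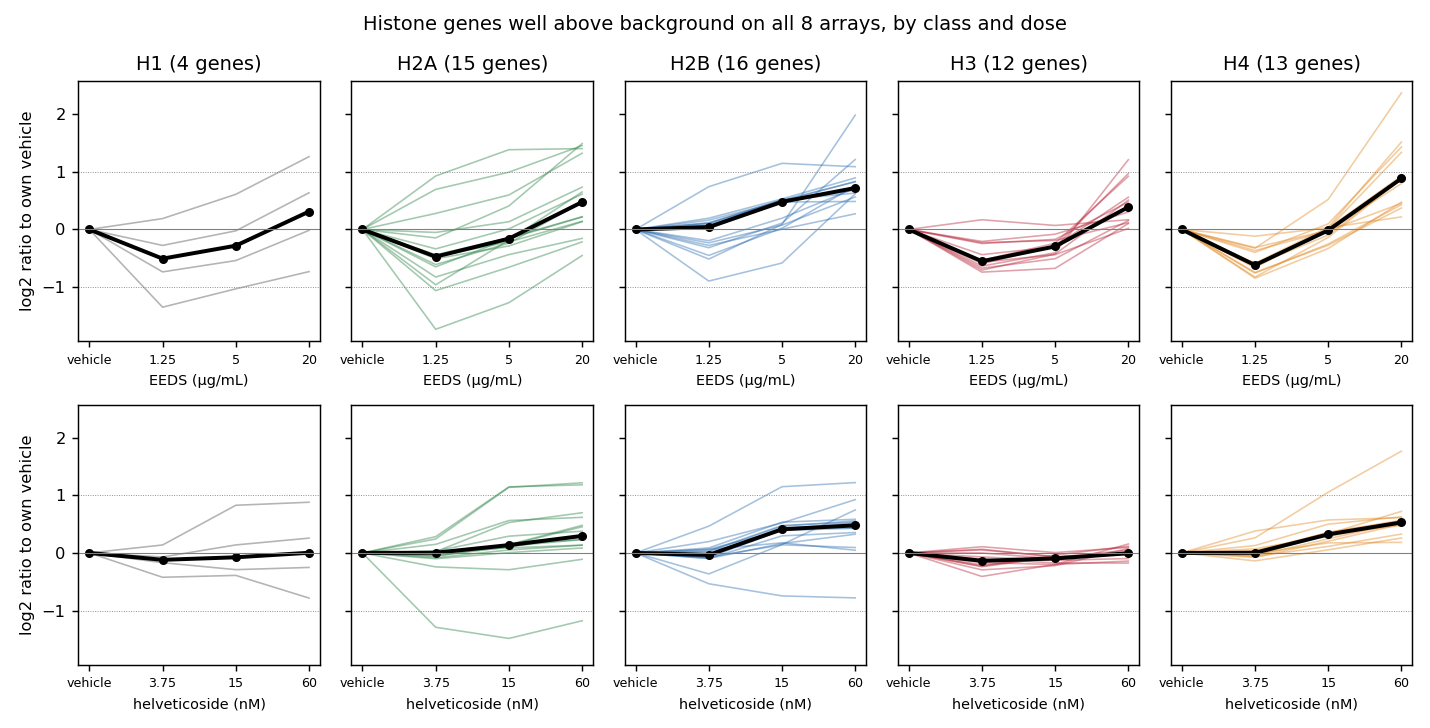
The log2 ratio to the vehicle of the same series is plotted for each histone gene well above background on all 8 arrays (thin lines), with the class median in black, by class (columns) and agent (rows). Dotted lines mark 2-fold. In the EEDS series the medians of H1, H2A, H3 and H4 fall below the vehicle at 1.25 μg/mL, and every class median lies above it at 20 μg/mL. In the helveticoside series the medians of H1 and H3 stay near 0.

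Most histone genes of the EEDS series had this course of a low value at the lowest dose and a high one at the top dose. Of the 60 well above background on all 8 arrays, 41 (68.3%) lay below the vehicle at 1.25 μg/mL and above it at 20 μg/mL, against 13.4% of all 11493 genes. All 60 had a higher ratio at 20 than at 1.25 μg/mL, as did 49.8% of all genes, and the median difference between these 2 doses was 0.86. The pattern held for 13 of 13 H4 genes, 11 of 12 H3 genes and 9 of 15 H2A genes. In the H2B class there were 9 of 16 genes above the vehicle at all 3 doses (34.0% of all genes) and 7 with the dip. Of 4 H1 genes, 1 had the dip, 1 lay above the vehicle at all 3 doses and 2 below it. In the helveticoside series 24 of 60 lay below the vehicle at the lowest dose and above it at the top dose (17.6% of all genes), and 24 lay above it at all 3 doses (31.0% of all genes).

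A dose trend was tested with limma, which fitted a slope per dose step (vehicle 0, then 1, 2 and 3) for each series over the 8 arrays and all 19046 genes. For EEDS, 9 of 65 histone genes rose with an adjusted p under 0.05 (7.3% of all genes did) and 0 fell (7.9%). For helveticoside, 4 rose (5.52%) and 0 fell (5.85%). The share that rose with EEDS, 13.8%, was above the background and that with helveticoside, 6.15%, was close to it. At an unadjusted p under 0.05, 23 histone genes had a positive EEDS slope and 16 a positive helveticoside slope, and 0 had a negative one for either agent. Of all 19046 genes, 3133 had a positive and 3241 a negative EEDS slope at that threshold, and 2796 and 2897 a positive and a negative helveticoside slope. Of the 65 slopes, 60 were positive for EEDS and 52 for helveticoside. No call was made in H3 or H4. The EEDS and helveticoside slopes did not differ by an adjusted p under 0.05 for any histone gene or any of the 19046 genes, and at an unadjusted p under 0.05 they differed for 0 histone genes. These calls rest on all 8 arrays, since 0 histone genes were called when the lowest or the middle dose of both series was left out, or when each series was fitted alone, while 8 to 25 had a positive slope at an unadjusted p under 0.05.

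Linker histones bind the DNA between nucleosomes, and their class was split. H1-2 rose in both series. Its log2 intensity was 14.83, 15.02, 15.44 and 16.09 on the EEDS arrays from the vehicle to 20 μg/mL, and 14.57, 14.71, 15.40 and 15.45 on the helveticoside arrays. The ratios at the top doses were 1.27 and 0.88, and the slopes per dose step were 0.42 ± 0.07 (SE, limma adjusted p = 0.024) and 0.33 ± 0.07 (adjusted p = 0.0455). Every treated array was above its vehicle. H1-4 stood at 0.64 and 0.26 at the top doses without a call. The class median was 0.65 and 0.57 at the top doses over all 6 genes, but 0.31 and 0.00 over the 4 well above background on all 8 arrays.

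H1-5 and H1-3 did not follow. H1-5 read 9.89, 8.53, 8.85 and 9.15 on the EEDS arrays and 11.11, 10.69, 10.72 and 10.33 on the helveticoside arrays, below the vehicle on all 6 treated arrays, with neither slope called. H1-3, the member of the class with the smallest mean top-dose ratio, read 13.98, 13.24, 13.44 and 13.97 with EEDS and 15.19, 15.02, 14.89 and 14.93 with helveticoside. Its top-dose ratios of -0.02 and -0.25 both changed sign with scaling to the 75th percentile. The vehicle arrays themselves differed for these genes, with helveticoside's above that of EEDS by 1.23 for H1-5 and 1.20 for H1-3. H1-6, a testis-type linker histone, exceeded its vehicle array, where it was not well above background, at 20 μg/mL EEDS (at least 2.71-fold higher).

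H2A genes encode the core histone that pairs with H2B. Of the 15 measured, 2 rose with EEDS (7.3% of all genes did) and 1 with helveticoside (5.52%). H2AC19 rose in both. It read 10.19, 10.89, 11.19 and 11.65 on the EEDS arrays and 9.95, 10.19, 11.09 and 11.17 on the helveticoside arrays, so that each treated array was above its vehicle and the values went up at every step. Its top-dose ratios were 1.46 and 1.22 and its slopes 0.47 ± 0.08 (limma adjusted p = 0.025) and 0.46 ± 0.08 (adjusted p = 0.0309). H2AC18, a near-identical copy, was not matched, and whether the H2AC19 probe also reads its message was not tested.

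H2AC8 rose with EEDS, from 10.79 on the vehicle array through 11.07 and 11.39 to 12.12, a slope of 0.43 ± 0.07 (limma adjusted p = 0.0191). On the helveticoside arrays it read 11.32, 11.47, 11.88 and 11.94, and that slope did not pass (adjusted p = 0.0833). H2AC25, next to H2BC26 on chromosome 1, was already 1.39 above the vehicle at 5 μg/mL and stayed at 1.41 at 20 μg/mL. On the helveticoside arrays it stood at 0.28, 1.15 and 1.18, and neither slope passed (adjusted p = 0.057 and 0.0752). H2AC1, a testis-type H2A, read 6.80, 6.65, 7.21 and 8.29 with EEDS and 7.57, 7.59, 8.10 and 8.27 with helveticoside, with top-dose ratios of 1.49 and 0.70 and no call.

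H2AC16 lay on the other side. It read 8.06, 6.32, 6.79 and 7.60 on the EEDS arrays and 9.43, 8.14, 7.94 and 8.25 on the helveticoside arrays, below the vehicle on all 6 treated arrays. Its ratio was -1.73 at 1.25 μg/mL EEDS and -1.18 at 60 nM helveticoside, where it was the one histone gene over 2-fold lower, but neither slope was called (limma adjusted p = 0.951 and 0.507). Its vehicle arrays differed by 1.37. The flattest H2A gene, H2AC4, read 12.13, 11.31, 11.70 and 11.98 with EEDS and 11.87, 11.87, 11.95 and 12.00 with helveticoside. The median H2A ratio was 0.48 at 20 μg/mL EEDS and 0.30 at 60 nM helveticoside.

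H2B held most of the calls, with 6 of 18 genes rising with EEDS (7.3% of all genes did) and 2 with helveticoside (5.52%). H2BC17 rose in both series. It read 13.03, 13.22, 13.56 and 13.92 with EEDS and 13.16, 13.25, 13.69 and 13.74 with helveticoside, with slopes of 0.30 ± 0.05 (limma adjusted p = 0.0208) and 0.22 ± 0.05 (adjusted p = 0.0469). H2BC13, H2BC9, H2BC10, H2BC4 and H2BC14 rose with EEDS, with slopes of 0.25 to 0.29 and adjusted p from 0.0209 to 0.0447, and H2BC5 stood just past the threshold at 0.05002. These genes moved by less than 2-fold and almost in step. At 5 μg/mL EEDS the 6 called genes had ratios of 0.48 to 0.53 and at 20 μg/mL 0.68 to 0.90, and at 60 nM helveticoside 0.43 to 0.59. Whether the probes of these similar genes read separate messages was not tested.

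H2BC13 read 13.59, 13.70, 14.08 and 14.43 on the EEDS arrays and 13.77, 13.83, 14.16 and 14.20 on the helveticoside arrays. H2BC9 read 13.13, 13.24, 13.64 and 13.95, then 13.36, 13.35, 13.78 and 13.88. H2BC10 read 12.92, 13.09, 13.42 and 13.65, then 13.06, 12.99, 13.46 and 13.53. The rise in each was spread over the doses of EEDS, whereas with helveticoside most of the difference came between 3.75 and 15 nM. H2BC4 read 11.11, 11.18, 11.60 and 11.79, then 11.42, 11.46, 11.90 and 11.95. H2BC14 read 12.94, 13.04, 13.45 and 13.63, then 13.08, 13.03, 13.51 and 13.58. Both followed the same course.

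H2BC12 rose with helveticoside, from 12.85 through 13.31 and 14.00 to 14.07, a slope of 0.44 ± 0.10 (limma adjusted p = 0.0483). With EEDS it read 12.94, 13.68, 14.08 and 14.03, and the slope did not pass (adjusted p = 0.0604). These values came from the brighter of its probes, and the other gave 0.40 in place of 1.22 at 60 nM and 0.55 in place of 1.09 at 20 μg/mL. H2BC26 had the highest ratio of the class at the top EEDS dose. It read 7.29, 6.78, 7.38 and 9.28 with EEDS and 7.77, 7.40, 7.91 and 8.52 with helveticoside. Nearly all of the EEDS difference of 1.99 arose in the step from 5 to 20 μg/mL, and the slope was not called (adjusted p = 0.14). H2BC21 read 7.60, 7.28, 7.71 and 8.81 with EEDS and 8.13, 8.33, 8.65 and 9.05 with helveticoside, also without a call.

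H2BC6, the flattest H2B gene on the mean of the top doses, had opposite ratios of 0.62 and -0.78. It read 8.68, 7.79, 8.10 and 9.30 on the EEDS arrays and 10.68, 10.15, 9.94 and 9.90 on the helveticoside arrays. All 4 helveticoside arrays lay above all 4 EEDS arrays, and the vehicle arrays differed by 2.0, the largest such gap among the histone genes. Against the mean of both vehicle arrays the ratios became -0.38 and 0.22. The median H2B ratio was 0.71 at 20 μg/mL EEDS and 0.45 at 60 nM helveticoside.

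**Figure D2:**
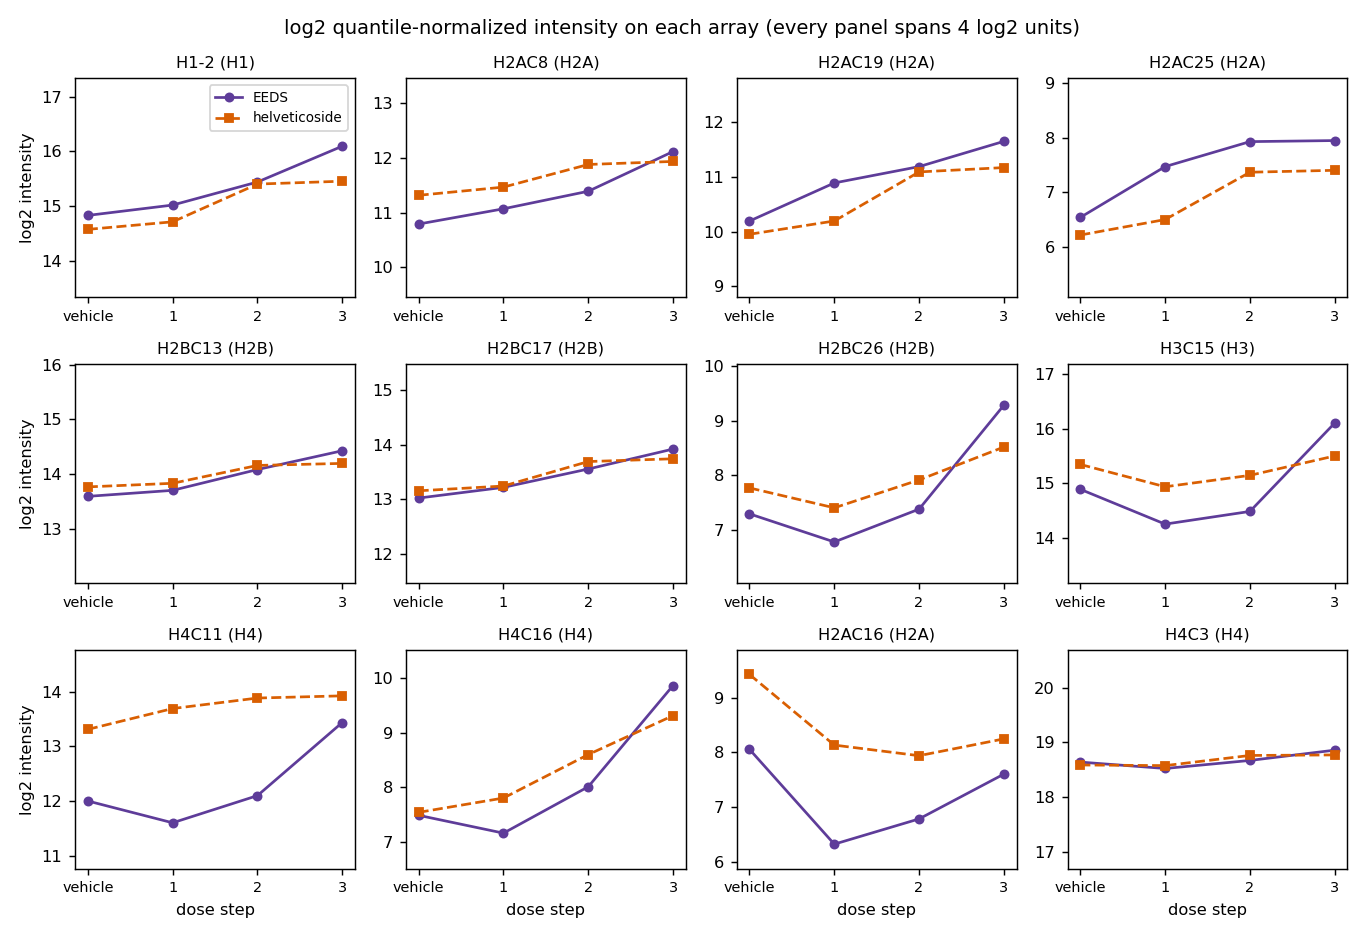
The log2 quantile-normalized intensity on each array is plotted against the dose step for 12 histone genes, with EEDS as circles on solid lines and helveticoside as squares on dashed lines; each point is 1 array and every panel spans the same range. H1-2, H2AC19 and H2BC17 go up in both series, within the EEDS series H2BC26, H3C15, H4C11 and H4C16 stand highest on the last array, H2AC16 lies below its vehicle throughout, and H4C3 is nearly level.

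H3 genes encode the core histone whose tail carries many of the studied methylation marks. They were nearly level with helveticoside. Their 12 ratios at 60 nM ran from -0.18 to 0.16 around a median of -0.01, which became 0.34 with scaling to the 75th percentile, while all genes under that scaling had a median of -0.18. At 20 μg/mL EEDS all 12 were above the vehicle, from 0.02 to 1.21 with a median of 0.39, after medians of -0.55 and -0.29 at the lower doses. H3C15 was the only one over 2-fold higher. It read 14.89, 14.26, 14.49 and 16.10 on the EEDS arrays and 15.35, 14.94, 15.15 and 15.50 on the helveticoside arrays, with a slope of 0.39 ± 0.23 for EEDS (limma adjusted p = 0.312).

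H3C13, a closely related gene on chromosome 1, gave nearly the same course, with EEDS ratios of -0.44, -0.30 and 0.97. H3C7 reached 0.93. The flattest H3 gene, H3C4, read 13.68, 13.01, 13.18 and 13.84 with EEDS and 13.63, 13.56, 13.50 and 13.53 with helveticoside. H3C1 was the one H3 gene above the vehicle at 1.25 μg/mL EEDS, with ratios of 0.17, 0.07 and 0.17.

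H4 genes encode the core histone that pairs with H3. Their median of 0.89 at 20 μg/mL EEDS was the highest of the 5 classes there. Against the mean of both vehicle arrays it was 0.67, below the 0.73 of H1. That H1 median covers all 6 genes of the class. Of these, H1-1 was well above background on none of the arrays and H1-6 on 2. At 60 nM helveticoside the H4 median was 0.54. All 14 were above the vehicle at both top doses, and all 14 were below it at 1.25 μg/mL EEDS, with ratios from -0.85 to -0.09. H4C16 had the highest ratios among the histone genes well above background on all 8 arrays. It read 7.49, 7.16, 8.01 and 9.86 on the EEDS arrays and 7.54, 7.80, 8.60 and 9.31 on the helveticoside arrays. Its top-dose ratios were 2.37 and 1.77, and its slopes of 0.80 ± 0.22 and 0.61 ± 0.22 were the steepest of the class without passing the threshold (limma adjusted p = 0.0649 and 0.134). Across the 9 other ways of processing, its EEDS ratio ran from 1.90 to 2.49.

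H4C6, H4C11 and H4C15 were over 2-fold higher at 20 μg/mL EEDS. H4C6 read 10.76, 10.17, 10.79 and 12.28 with EEDS and 11.67, 11.80, 12.17 and 12.30 with helveticoside. H4C11 read 12.00, 11.60, 12.10 and 13.44, then 13.31, 13.69, 13.88 and 13.92. H4C15 read 12.34, 11.70, 12.36 and 13.68, then 13.02, 13.02, 13.38 and 13.58. In each, most of the EEDS difference came in the last step. The helveticoside vehicle array lay above the EEDS vehicle array by 0.92, 1.31 and 0.68. Against the mean of both vehicle arrays the EEDS ratio of H4C11 was 0.78, under 2-fold, in place of 1.43. H4C7 exceeded its vehicle arrays, where it was not well above background, at 20 μg/mL EEDS (at least 2.49-fold higher) and at 60 nM helveticoside (at least 2.02-fold higher). H4C3, the flattest, read 18.64, 18.52, 18.67 and 18.86 with EEDS and 18.59, 18.57, 18.76 and 18.77 with helveticoside. Its EEDS ratio of 0.22 became -0.31 with scaling to the 75th percentile.

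**Figure D3:**
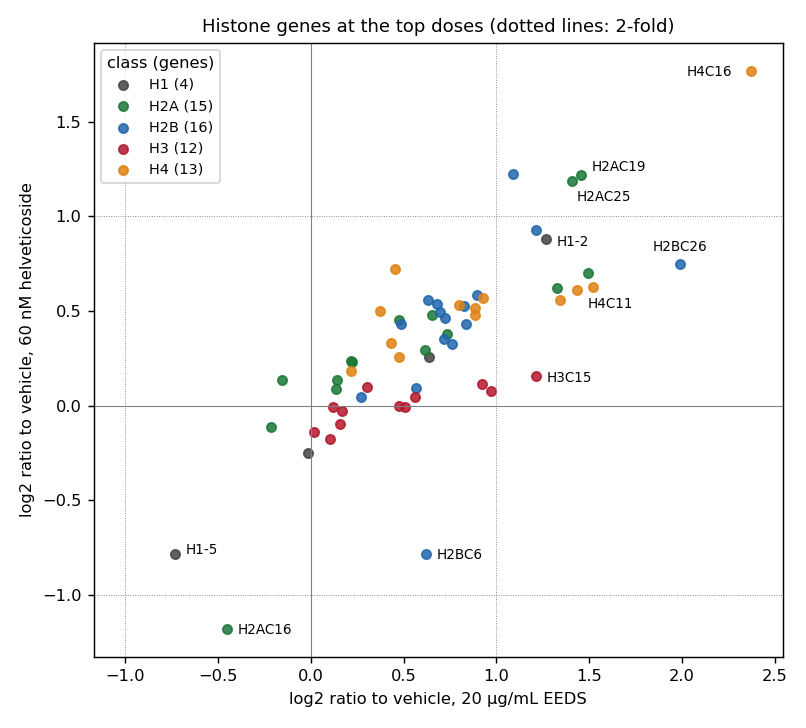
Each point is a histone gene well above background on all 8 arrays, placed by its log2 ratio to the vehicle at 20 μg/mL EEDS (horizontal) and 60 nM helveticoside (vertical) and coloured by class; dotted lines mark 2-fold. H4C16 lies farthest up in both, the H3 genes spread along the EEDS axis alone, and H2BC6, H1-5 and H2AC16 lie farthest below the helveticoside vehicle.

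The agents are set side by side only by dose step, since their doses are in different units. Over the 60 genes the ratios of both agents went together, with a Pearson r across genes of 0.68 at the lowest, 0.90 at the middle and 0.79 at the top doses. The genes of a series share 1 vehicle array and similar sequences, so they are not independent points.

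Genes on chromosome 1 had a higher median ratio at 20 μg/mL EEDS than those on chromosome 6. The median was 1.21 over 10 genes on chromosome 1, all above the vehicle and 6 of them over 2-fold higher. It was 0.56 over 49 genes on chromosome 6, of which 6 were over 2-fold higher. The background share over 2-fold higher at this dose was 14.3%, taken over the 11493 genes that passed the same signal filter. Chromosome 1 exceeded this share and chromosome 6 did not. At 60 nM helveticoside the medians were 0.52 and 0.30. Within H2A the EEDS medians were 1.03 (4 genes) and 0.22 (11 genes), within H2B 1.22 (3) and 0.72 (13), and within H3 1.09 (2) and 0.24 (10). Several chromosome 1 genes are near-identical copies of each other. The genes share arrays and sequence, so the difference is a description of these probes.

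Among genes well above background on every array, 6 pairs of an H2A and an H2B gene start within 1500 bases of each other. Distances were taken between the listed start coordinates without using the strand, so the list may be incomplete. Pairs whose H2B gene is annotated over a long span, such as H2BC4 with 10757 bases, may have been missed. At 20 μg/mL EEDS the H2B gene had the higher ratio in 5 of 6 pairs, with a median difference of 0.38, and at 60 nM helveticoside in 3 of 6. H2AC13 and H2BC13 lay on opposite sides of the vehicle at all 3 EEDS doses, with ratios of -1.06, -0.66 and -0.22 for H2AC13 and 0.11, 0.49 and 0.83 for H2BC13. H2AC25 and H2BC26, whose overlapping promoters are printed above, had different courses. At 1.25 and 5 μg/mL EEDS H2AC25 stood at 0.93 and 1.39 and H2BC26 at -0.51 and 0.09. In the EEDS series H2BC26 was the higher of them at 20 μg/mL alone.

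**Figure D4:**
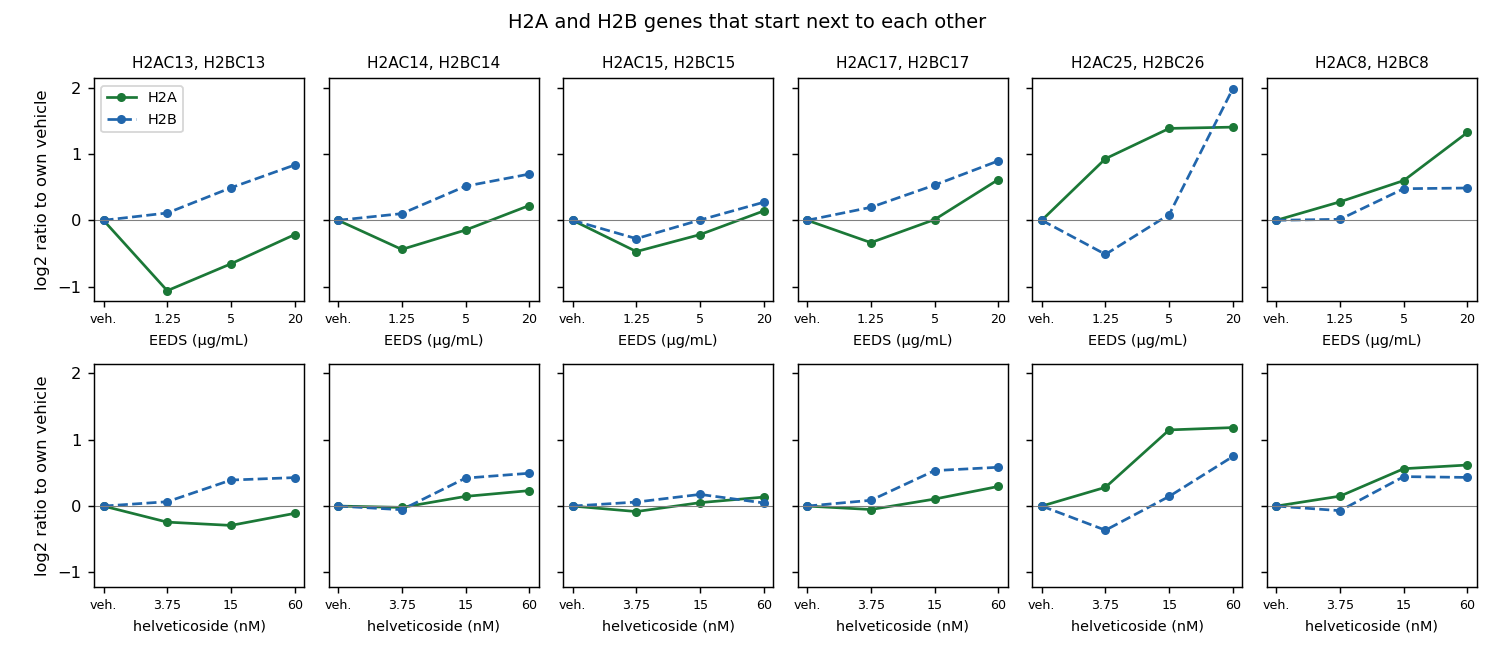
For 6 pairs of H2A (solid green) and H2B (dashed blue) genes that start within 1500 bases of each other, the log2 ratio to the vehicle is plotted by dose of EEDS (top row) and helveticoside (bottom row), 1 array per point. The H2B gene is the higher of the pair at 20 μg/mL EEDS in all but H2AC8 and H2BC8, and H2AC25 and H2BC26 cross between 5 and 20 μg/mL.

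Probes of 1 gene did not always give the same sign. Of the 10 genes with more than 1 probe, H2AC17 gave 0.30 and -0.18 and H4C1 0.26 and -0.41 at 60 nM helveticoside from the brighter and the dimmer probe. H2BC18 gave 0.56, -0.03 and -0.77 at 20 μg/mL EEDS, where the second of these probes was well above background on 4 arrays and the last on none. H3C10 gave -0.01 and 0.00 at 60 nM helveticoside. With the same sign, the size differed for H2AC6, with 0.22 and 1.37 at 20 μg/mL EEDS, and for H2BC21, with 1.22 and 2.16. The dimmer H2BC21 probe was well above background on 6 arrays. At lower doses H2BC21 gave -0.32 and 1.5 at 1.25 μg/mL EEDS and H2BC12 0.47 and -0.09 at 3.75 nM helveticoside, and probes of H2AC6, H4C12 and H4C13 also differed in sign at a lower dose.

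The genes that drive S phase and copy DNA lay below the vehicle at the lowest EEDS dose, with a median of -0.54, as most histone genes did, and stayed below it at the top doses. Of 29 measured, 0 rose and 4 fell with EEDS by limma, and 0 rose and 3 fell with helveticoside. Their median ratio was -0.57 at 20 μg/mL EEDS and -0.33 at 60 nM helveticoside. PRIM1, the small primase subunit that starts new DNA strands, fell, with ratios of -1.22, -1.89 and -3.08 over the EEDS doses and -1.11, -1.83 and -2.42 over the helveticoside doses (limma adjusted p = 0.013 and 0.0167). LIG1, which joins the nicks between newly made stretches, fell as well and stood at -1.96 and -2.05 at the top doses (adjusted p = 0.02 and 0.0226). CDC25A, a phosphatase that activates cyclin-dependent kinases, stood at 1.45 and 1.71 without a call (adjusted p = 0.234 and 0.223). The part of these genes' levels in the histone values was not tested.

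Genes that make, process or degrade histone messages were mixed. Of 24 measured, 2 rose and 1 fell with EEDS, and 1 rose and 1 fell with helveticoside, and the median ratio was 0.60 and 0.11 at the top doses. CPSF3, the nuclease that cuts the 3′ end of histone messages, fell in both series, to -1.46 and -1.27 (limma adjusted p = 0.0145 and 0.0202). NCBP2, the small subunit of the nuclear cap-binding complex, rose in both series, to 1.47 and 1.41 (limma adjusted p = 0.0144 and 0.0183). TUT7, which adds uridines to histone messages before their decay, rose with EEDS, to 1.98 (adjusted p = 0.0473), and stood at 1.45 with helveticoside (adjusted p = 0.0969). UPF1, an RNA helicase needed for that decay, stood at 2.0 and 2.02 without a call (adjusted p = 0.0813 and 0.0932).

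The chaperones that carry histones to DNA had medians of -0.35 and -0.19 over 19 measured, with 1 rising and 1 falling with EEDS and 1 rising and 2 falling with helveticoside. CHAF1B, a subunit of the assembly factor CAF-1, stood at -1.31 and -1.06, CABIN1, of the HIRA complex, at -1.03 and -1.02, and IPO4, which imports H3 and H4, at -1.02 and -1.01, each without a call. Among 15 histone variants listed here as replication-independent, 2 rose and 1 fell with each agent, with medians of 0.45 and 0.42. H1-10, a linker histone, rose to 1.73 and 1.76 (limma adjusted p = 0.0352 and 0.0369). H2AJ, an H2A variant, stood at 0.71 and 0.70 without a call. The genes of these lists were not picked for how they moved, but the lists were written with earlier results known.

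**Figure D5:**
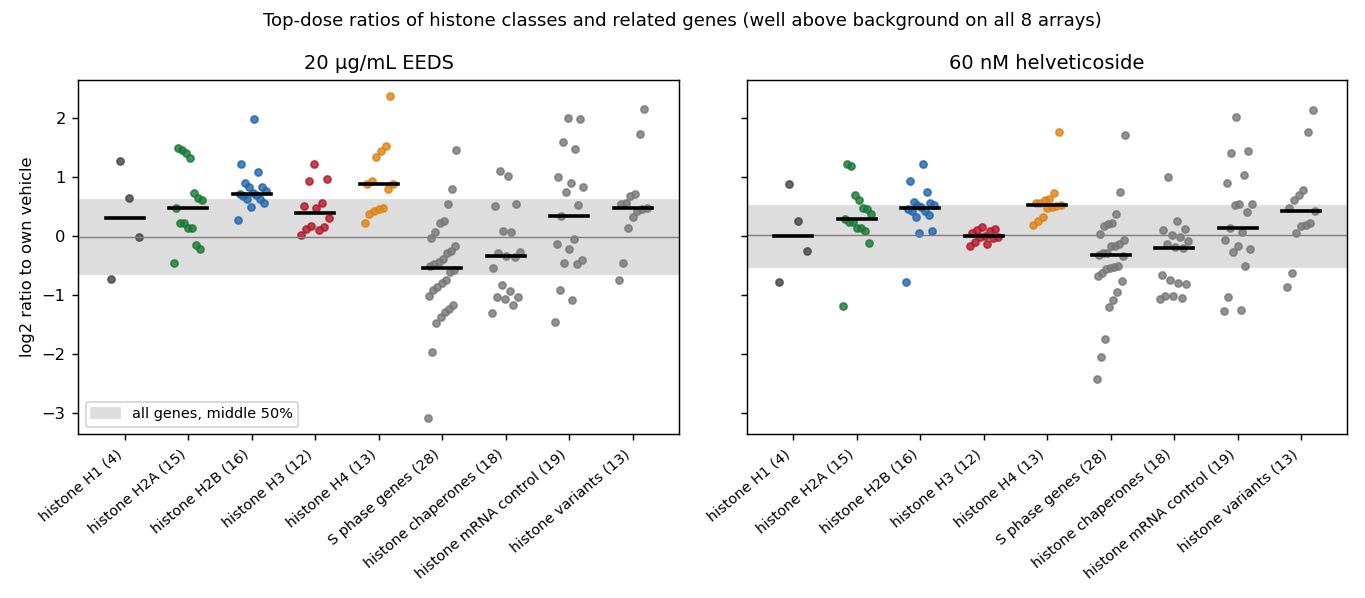
Each point is a gene well above background on all 8 arrays, placed by its log2 ratio to the vehicle at 20 μg/mL EEDS (left) or 60 nM helveticoside (right); black bars are group medians, the grey band holds the middle 50% of all genes and group sizes are in brackets. The class medians of H4 (0.89 and 0.53) lie above the band's centre and the median of S phase genes (-0.53 and -0.32) below it.

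Markers of the epithelial cell type moved in the same arrays. Of 6, 4 fell with EEDS and 3 with helveticoside, and their medians were -0.68 and -0.65 at the top doses. CDH1, the epithelial cadherin, fell to -2.70 and -2.71 (limma adjusted p = 0.0364 and 0.0452), KRT19 to -1.90 and -1.72 (adjusted p = 0.0302 and 0.0443), and KRT8 to -0.78 with EEDS (adjusted p = 0.0424) and stood at -0.74 with helveticoside (adjusted p = 0.0604). KRT7 stood above the vehicle, at 0.62 and 0.53, and EPCAM at 0.05 and -0.26, without a call. The median ratio of the 6 fibroblast markers was 0.25 and -0.01 and that of the 5 leukocyte markers 0.11 and -0.03. COL1A1 stood at 0.80 and 0.72, PTPRC at 0.20 on both, and CD14 at -1.57 and -2.28, none with a call. Their part in the histone values was not tested.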

How the data were processed

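RNA pooled from 3 cultures per condition was hybridized to 8 arrays with a single dye. For each array the authors deposited the intensity per spot from the scanner software, with a processed signal from which the background had been subtracted, and calls of outliers and of spots well above background. A table of intensity values processed by the authors served as an alternative. The array's genome build is not given in the sources used here.

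Control and outlier spots were left out, spots of a probe were averaged, and the processed signal of the 8 arrays underwent quantile normalization and was taken to log2. A gene was kept when its median signal reached 1.4 times the local background on at least 1 array of each series. Of 34127 probes, 22 had no usable spot and 24812 were matched through their accession to 19056 RefSeq genes (GRCh38.p14), 19046 of which were kept; of several probes the one with the highest mean signal was used. For H1-6 and H4C7, which were not well above background on a vehicle array, the text gives a bound against the lowest signal well above background; counts and medians over all 65 members use the measured ratios of these and of H1-1, H2BC1 and H2BC7. Dose trends were fitted with limma 3.58.1 (R 4.3.3, trend and robust estimation, 4 residual degrees of freedom), with p-values adjusted by Benjamini-Hochberg over all genes kept. The fit was tested on simulated data. Ratios, counts and medians came from Python 3.11.15 with numpy 2.4.6 and pandas 2.3.3.

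Named with values on every array were histone genes well above background on the vehicle and top-dose arrays of both series that were past 2-fold at a top dose or had a trend call, the flattest member of each class, and from the other lists the 3 genes with the largest mean top-dose ratio in either direction among those well above background on all 8 arrays. The values of 1 list member are not reported here. H1-4, H1-5, H3C1, H3C7, H3C13, H2BC5, CPSF3, KRT7 and EPCAM were named after their values were seen. The members and lists were chosen with earlier results of these data known. The alternatives were other background corrections, scalings, filters, probe rules, vehicle arrays and sets of arrays.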

Additional observations from a re-analysis of the deposited data

Results flagged for a closer look

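H2AC4, a core histone H2A gene, lay below its vehicle on all 3 EEDS arrays and above its vehicle on all 3 helveticoside arrays. Its log2 ratio at 20 μg/mL EEDS was -0.15 and that at 60 nM helveticoside 0.14. The EEDS ratio became 0.08 with scaling to the 75th percentile. Whether the agents differ at single doses was not tested, with 1 array per dose, and the difference of the slopes was not called by limma.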

How the results depend on the processing

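Alternatives were 9 for ratios and 12 for dose trends. The medians over all members at both top doses moved by less than 0.38 on the log2 scale. For members over 2-fold higher at 60 nM helveticoside, the main count of 7 became 3 with the signal as scanned, with normexp correction (offset 50) and with the values processed by the authors, and 4 with genes well above background on all 8 arrays. Over 2-fold lower there, 1 became 0 under the first 3 of these and against the mean of both vehicle arrays. Over 2-fold lower at 20 μg/mL EEDS, 0 became 1 with 75th percentile scaling and with normalization within each series, and 2 against the mean of both vehicle arrays. The 9 rising EEDS trends became 14 with 75th percentile scaling (9 of them shared), 14 with the authors' values (7 shared) and 16 with genes well above background on all 8 arrays (9 shared), and 0 when each agent was fitted alone or when the lowest or the middle dose was left out (14, 16 and 16 at an unadjusted p under 0.05). The 4 rising helveticoside trends became 9 with 75th percentile scaling (4 shared), 1 with plain eBayes (1 shared) and 0 in the same 3 fits with fewer arrays (25, 12 and 8 unadjusted). Of the 450 comparisons of named genes' top-dose ratios, 10 changed sign, and 0 of these were for a gene past 2-fold. Of 90 for class medians, 5 did, all of them H3 at 60 nM helveticoside, whose median lies near 0. The causes were not tested. No paired analysis was possible because each dose has 1 array and the labels give no replicate numbers. Signal over background limits H1-1, H2BC1 and H2BC7, for which no ratio is given.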

Other observations

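Top-dose ratios were also set beside the promoter sequences. Among histone genes well above background on all 8 arrays with a matched promoter, the median ratio at 20 μg/mL EEDS was 0.67 for 36 genes with TATAAA and 0.72 for 19 without, and 0.68 for 23 genes with ATTTGCAT and 0.72 for 32 without. The 8 genes without CCAAT had a median of 0.91, against 0.64 for 47 with it, and at 60 nM helveticoside 0.54 against 0.33. These differences were not tested. All matched promoters without CCAAT belong to class H4, so the CCAAT medians set H4 genes against genes mostly of other classes. Across the 60 genes the Spearman correlation of the ratio with gene length was -0.16 at 20 μg/mL EEDS and -0.18 at 60 nM helveticoside, where genes share arrays and similar sequences.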
